A study of Mus musculus with 6 samples.

Results

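The genes described here are 10 heat shock chaperones of 56691 genes in the deposited table: Hspa1a, Hspa1b, Hspa8, Hsp90aa1, Hsph1, Dnajb1, Hspb1, Hspb8, Hspd1 and Hspe1. They were chosen by gene symbol, each symbol had 1 row, and all 10 passed the filter on low counts. RNA was sequenced from mouse bone marrow-derived macrophages that had been grown with M-CSF, the macrophage growth factor, and sorted after co-culture with the mEC25 cancer cell line. In 3 libraries the macrophages had been in contact with mEC25 cells (contact), and in 3 libraries they had shared the culture without contact, across a transwell (transwell). All 6 libraries thus come from co-culture with 1 cancer cell line. The labels give no macrophages cultured alone, and they leave out mouse strain, age, sex and the markers used for sorting. Whether the replicates are separate cultures or animals is also unstated. The p-values therefore reflect only how far these libraries vary, which may be technical.

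Heat shock chaperones help other proteins fold, keep them from clumping and take part in their repair or disposal. HSP70 proteins bind unfolded stretches of protein with the help of J-domain partners such as the product of Dnajb1 and exchange factors such as that of Hsph1, HSP90 acts on kinases and steroid receptors late in folding, small heat shock proteins hold unfolded proteins without using ATP, and Hspd1 and Hspe1 encode the barrel and the lid of the mitochondrial chaperonin. Some of these genes are active in every cell, and others are switched on by the heat shock factor HSF1 when unfolded protein accumulates, through repeats of the 5-base unit nGAAn near their start sites.

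The contact libraries held 20911880 to 22563835 counts and the transwell libraries 18173192 to 18895818. The quasi-likelihood test of edgeR was run on 14113 genes, and 37.5% passed a Benjamini-Hochberg adjusted p of 0.05, 3016 of them higher in contact and 2270 lower. With scaling by library totals alone the split was 3945 higher and 1450 lower, and the median log2 change of all genes moved from 0.03 to 0.14. Epithelial transcripts were far more abundant in contact libraries: the summed FPKM of 34 epithelial markers (FPKM is the count scaled to exon length and library total) was 1012 to 1771 in contact and 9.43 to 10.2 in transwell libraries. All 27 markers that could be tested rose, and Cdh3, Dsg3, Cldn4 and Grhl2 were at 0 counts in every transwell library. Apart from Sfn (4.04) and Itga6 (4.11), the markers averaged at most 0.253 FPKM (Pkp3) in transwell libraries. For markers this low, passing the filter on low counts rested largely on the contact libraries. The count of 27 was therefore largely set by the filter and adds little to the summed values. The summed FPKM of 16 macrophage markers was 18370 to 20170 in contact and 19760 to 21100 in transwell libraries. Most of that sum was Lyz2, which averaged 12180 FPKM in contact and 13310 FPKM in transwell libraries. Of the 16 macrophage markers 5 rose and 6 fell, and all were detected in both groups.

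For the members whose values differ most, and for the pair of mitochondrial genes that share a start region, the DNA upstream of the start sites is shown, so that the elements read by heat shock factors can be set beside the values. RefSeq promoter windows on GRCm38.p6, each of 250 bases before and 50 after a start, were at hand for 8 of the 10 genes, and not for Hspa8 and Hsp90aa1. The stretches below are the 250 bases before the start on the gene's own strand, at chr17:34972157-34972406 (minus) for Hspa1a, chr17:34959239-34959488 (minus) for Hspa1b, chr5:135887669-135887918 (plus) for Hspb1 and chr5:116422865-116423114 (minus) for Hspb8. The last is the 215 bases between the facing starts of Hspd1 and Hspe1, chr1:55087933-55088147, read on the plus strand. Capitals mark matches to GAANNTTC or TTCNNGAA, the pairs of facing units in a heat shock element, each of which reads the same on both strands.
Hspa1a: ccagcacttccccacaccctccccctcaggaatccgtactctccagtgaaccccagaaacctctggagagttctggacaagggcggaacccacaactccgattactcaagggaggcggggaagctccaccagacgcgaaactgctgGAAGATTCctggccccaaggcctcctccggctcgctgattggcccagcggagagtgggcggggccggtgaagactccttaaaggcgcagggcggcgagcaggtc
Hspa1b: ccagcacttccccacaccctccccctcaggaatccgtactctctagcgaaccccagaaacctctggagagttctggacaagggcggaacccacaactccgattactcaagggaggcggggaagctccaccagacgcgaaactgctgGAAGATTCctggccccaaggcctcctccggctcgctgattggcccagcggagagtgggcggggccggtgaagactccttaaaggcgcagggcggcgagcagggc
Hspb1: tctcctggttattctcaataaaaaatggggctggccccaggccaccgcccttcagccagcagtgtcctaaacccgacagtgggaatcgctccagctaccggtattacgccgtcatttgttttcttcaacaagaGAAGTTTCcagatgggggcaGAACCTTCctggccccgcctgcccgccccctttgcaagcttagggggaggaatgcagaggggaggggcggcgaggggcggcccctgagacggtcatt
Hspb8: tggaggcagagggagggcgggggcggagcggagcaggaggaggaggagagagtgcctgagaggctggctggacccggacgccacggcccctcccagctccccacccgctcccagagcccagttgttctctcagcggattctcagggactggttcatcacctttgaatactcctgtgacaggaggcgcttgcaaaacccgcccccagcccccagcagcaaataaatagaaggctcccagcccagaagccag
Hspd1-Hspe1: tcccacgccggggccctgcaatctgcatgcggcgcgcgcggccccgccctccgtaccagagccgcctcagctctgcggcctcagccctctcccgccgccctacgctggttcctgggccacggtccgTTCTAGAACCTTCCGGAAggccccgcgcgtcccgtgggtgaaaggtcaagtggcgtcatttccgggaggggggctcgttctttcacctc

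The upstream stretches of Hspa1a and Hspa1b were the same at 247 of 250 bases (98.8%). They differed at C44T, T47C and T249G, with positions counted from 1 at the 5′ end and the base of Hspa1a given first. Both held GAAGATTC at position -104 from the start. Hspb1 held 2 such pairs, GAAGTTTC at -117 and GAACCTTC at -97. In Hspb8 the one match, GAAGTTTC, lay just past the start, outside the stretch shown. The stretch between Hspd1 and Hspe1 held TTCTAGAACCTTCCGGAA, in which 2 overlapping matches to a 3-unit heat shock element, with alternating units searched on both strands, lie. Hsph1 had 1 match to the 3-unit element, TTCTGGAAAGTTC, past its start. Upstream it held the pair TTCTCGAA, at -33 or -54 by the start used. The windows of Dnajb1 held none of these letters. Neither did the window of a further Hspd1 start, with upstream bases at chr1:55088244-55088493 (minus), which lies past the start of Hspe1. Of 32817 promoter windows of the same length, 7.86% held GAANNTTC, 8.51% held TTCNNGAA and 0.6% held the 3-unit element. The matches overlap in part, and they describe letters, not bound sites. Only exact letters were searched, so elements with an imperfect unit were not counted. A stretch without a match to the 3-unit element may therefore still hold a heat shock element.

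The 10 chaperone genes split into 5 that were higher in contact libraries and 5 that were not called. The small heat shock genes Hspb8 and Hspb1 and the inducible HSP70 gene Hspa1b had the largest rises, with fitted folds of 212, 106 and 16.9. Hspa1a rose 2.36-fold and Hsph1 1.37-fold, while the abundant genes Hspa8, Hsp90aa1, Hspd1 and Hspe1 and the J-domain gene Dnajb1 did not pass the test. Of the 10, 5 were thus called higher (21.4% of all genes tested were) and 0 lower, where 16.1% of all genes were lower. At an unadjusted p under 0.05 in edgeR, 1 was lower (Hspa8), and DESeq2 and limma on log2(FPKM + 1) called 0 lower. At least 2-fold rises were called for 4 of the 10 and for 11.8% of all genes. Hspb1 (5 to 6 counts per transwell library) and Hspb8 (0 to 4) were under the filter's minimum count of 10 there. They passed the filter through the contact libraries alone. The median log2 change was 0.33 over the 10 genes and 0.03 over all genes tested.

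**Figure D1:**
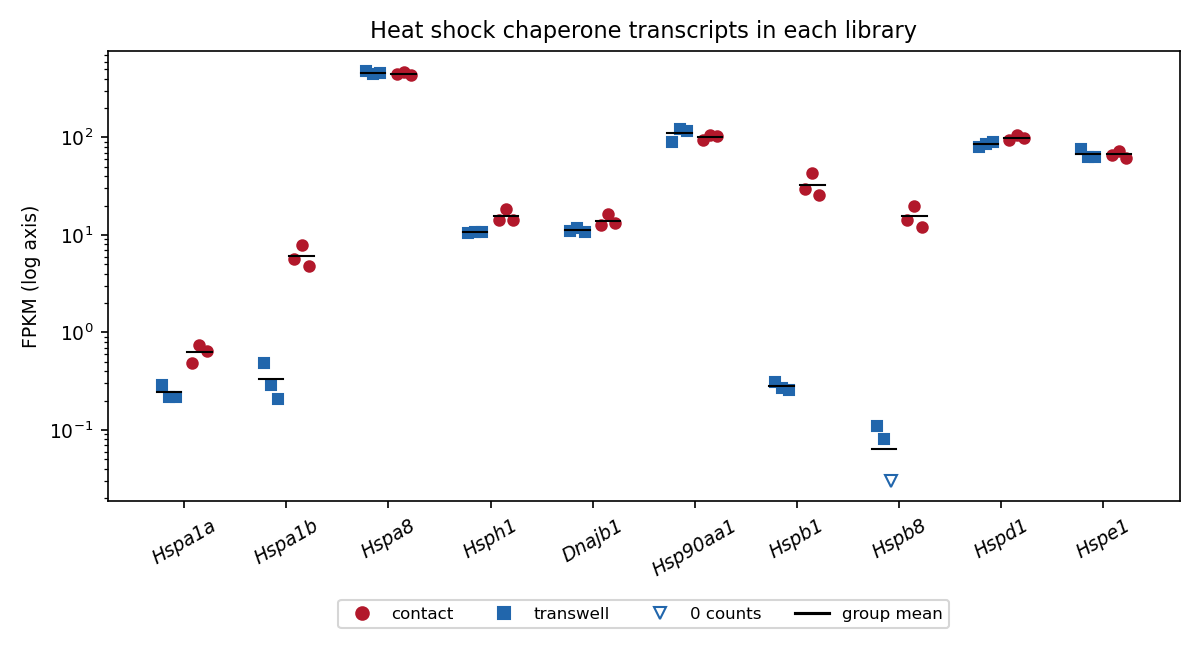
FPKM of each chaperone gene (log axis) in the 3 contact (circles) and 3 transwell libraries (squares), with group means as lines and an open triangle, placed at the bottom, for a library with 0 counts. Hspb1, Hspb8 and Hspa1b are far apart between groups, while Hspa8, Hsp90aa1 and Hspe1 overlap.

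The order of levels, which FPKM allows since it is per length, changed with them. In transwell libraries Hspa8 stood at 462 ± 15.1 FPKM (SD, n = 3), followed by Hsp90aa1 (110 ± 16.7), Hspd1 (84.9 ± 4.81) and Hspe1 (67.5 ± 7.17). Dnajb1 (11.1 ± 0.573) and Hsph1 (10.6 ± 0.238) had overlapping ranges, and Hspa1b, Hspb1, Hspa1a and Hspb8 were all under 0.5 FPKM. In contact libraries the same 4 genes led, with Hsp90aa1 (93.2 to 106 FPKM) and Hspd1 (93.2 to 107) within each other's range. Hspb1 came next at 32.8 ± 9.06 FPKM, above Dnajb1 and Hsph1, and Hspb8 (15.5 ± 3.99) lay among them. Hspa8 made up 54.3 to 57.7% of the summed FPKM of the 10 genes in contact and 60.4 to 64.0% in transwell libraries. The shares of Hspb1, Hspb8 and Hspa1b were at most 0.0656% each in transwell libraries. In contact libraries they were 3.28 to 5.0% for Hspb1, 1.57 to 2.32% for Hspb8 and 0.618 to 0.930% for Hspa1b. The summed FPKM of the 10 genes was 777 to 858 in contact and 742 to 752 in transwell libraries. These groups did not overlap (exact permutation test, two-sided p = 0.1, the smallest that 3 against 3 libraries allow). FPKM is scaled to library totals, under which the median log2 change of all genes was 0.14, against 0.03 in the main fit. Whether the summed values differ beyond that shift was not tested.

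Small heat shock genes had the largest changes among the 10. Hspb1 (ENSMUSG00000004951, chromosome 5, 135887919 to 135889563 on GRCm38, protein-coding), which encodes the ATP-independent chaperone HSP27, known in mouse as HSP25, stood at 29.96, 42.95 and 25.51 FPKM in contact replicates 1 to 3 and at 0.31, 0.27 and 0.26 FPKM in transwell replicates 1 to 3. The groups lay about 2 orders of magnitude apart, and contact replicate 2 was the highest. The log2 change was 6.73 ± 0.29 (SE, edgeR adjusted p = 4.9e-07). The transwell value rests on 16 counts over the 3 libraries. A pseudogene, Hsp25-ps1, shares 42.7% of the 100-base windows of the Hspb1 transcript. It had 10 counts in contact and 0 in transwell libraries, so few reads had been assigned to it.

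Hspb8 (ENSMUSG00000041548, chromosome 5, 116408491 to 116422864, protein-coding) encodes a small heat shock protein that works with the co-chaperone BAG3 in clearing misfolded protein. It stood at 14.41, 19.94 and 12.20 FPKM in contact and at 0.11, 0.08 and 0 FPKM in transwell libraries. All contact values were over 100 times the highest transwell value, and transwell replicate 3 had 0 counts, which allows up to 0.0828 FPKM at 3 counts (counting error only). The log2 change was 7.73 ± 0.38 (adjusted p = 9.4e-07), with 7 transwell counts in all. Hspb8 shared no 50-base window with another annotated transcript. In each contact library Hspb1 stood at nearly the same multiple of Hspb8, with ratios of 2.08, 2.15 and 2.09.

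Among the other small heat shock genes, Cryab, the gene of alpha B-crystallin, moved the same way. It stood at 21.04, 31.01 and 19 FPKM in contact and 0.64, 0.56 and 0.87 FPKM in transwell libraries. Its fitted log2 change was 4.97 ± 0.25 (adjusted p = 9.4e-07), and its ratio between contact replicates 2 and 3 was 1.63. Hspb9 was lower, at 0.983 ± 0.107 against 1.74 ± 0.366 FPKM (-0.93 ± 0.31, adjusted p = 0.0428), a call that 11 of 16 alternatives ended, among them leaving out any 1 library (log2 change -1.06 to -0.79). Hspb6 and Hspb11 were not called, and Cryaa, Hspb2, Hspb3 and Hspb7 were too low to be tested.

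Hspa1b and Hspa1a, neighbouring gene copies 9951 bases apart, encode the stress-inducible HSP70. Hspa1b (ENSMUSG00000090877, chromosome 17, 34956436 to 34959238, protein-coding) stood at 5.68, 7.98 and 4.8 FPKM in contact and at 0.49, 0.29 and 0.21 FPKM in transwell libraries. The lowest contact value was far above the highest transwell value. The log2 change was 4.08 ± 0.29 (adjusted p = 6.2e-06).

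Hspa1a (ENSMUSG00000091971, chromosome 17, 34969190 to 34972156, protein-coding) was low in all libraries, at 0.49, 0.74 and 0.64 FPKM in contact and 0.29, 0.22 and 0.22 FPKM in transwell libraries. The groups did not overlap, and the log2 change was 1.24 ± 0.31 (adjusted p = 0.0105). Without transwell replicate 3 it was 1.16 with an adjusted p of 0.0514, while the other 14 alternatives that tested it kept the call. The copies share sequence: 47.1% of the 100-base windows of the Hspa1a transcript and 49.9% of those of Hspa1b also occur in the other. How shared reads were counted is unstated, and the division between the copies is uncertain. Their counts together were 392, 514 and 341 in contact and 42, 27 and 23 in transwell libraries. The ratio of Hspa1b to Hspa1a counts was 7.12 to 10.9 in contact and 0.917 to 1.63 in transwell libraries (exact permutation test, two-sided p = 0.1, the smallest possible). Their upstream stretches, printed above, are nearly the same. Gm20481, which overlaps Hspa1a on the other strand over 2225 bases, was at 0 counts in all 6 libraries.

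Hspa8, the constitutive HSP70 gene, remained the most abundant of the 10. It stood at 449.69, 465.68 and 442.19 FPKM in contact and 477.86, 447.92 and 459.43 FPKM in transwell libraries. The ranges overlap, and the log2 change was -0.15 ± 0.06 (adjusted p = 0.107). Per library it was 53.4 to 81.3 times the FPKM of Hspa1a and Hspa1b together in contact and 613 to 1068 times in transwell. Of its 100-base windows, 31.6% also occur in transcripts of 6 other genes, Gm15459 above all, and part of its reads may be counted there.

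Hsph1 (ENSMUSG00000029657, chromosome 5, 149614287 to 149636376, protein-coding), the HSP110 gene whose product exchanges nucleotide on HSP70, was moderately higher. It stood at 14.20, 18.68 and 14.35 FPKM in contact and 10.38, 10.85 and 10.68 FPKM in transwell libraries. The groups did not overlap, and the log2 change of 0.45 ± 0.10 passed the test (adjusted p = 0.0078, and 2.6e-04 to 0.0374 over 17 alternatives). Dnajb1, which encodes the J-domain protein that delivers clients to HSP70, stood at 12.63, 16.28 and 13.17 against 11.02, 11.75 and 10.62 FPKM. Its groups did not overlap either, but its log2 change of 0.22 ± 0.11 was not called (adjusted p = 0.14). With library totals alone it was 0.33 and passed (adjusted p = 0.039), a setting under which the median of all genes was 0.14 (adjusted p over all alternatives 0.039 to 0.437). Non-overlapping FPKM, higher in contact, was found for 7 of the 10 genes and for 35.8% of all genes tested (51.2% in either direction).

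Hsp90aa1, the inducible form of cytosolic HSP90, stood at 93.17, 105.83 and 104 FPKM in contact and 90.81, 121.66 and 117.52 FPKM in transwell libraries. The ranges overlap, with transwell replicate 1 the lowest of all 6 libraries, and the log2 change was -0.24 ± 0.11 (adjusted p = 0.111). Without that library it was -0.35 and passed the test (adjusted p = 0.00532), with a range of 0.00532 to 0.475 over 17 alternatives. Its constitutive partner Hsp90ab1, at 587 ± 43.3 against 522 ± 30.3 FPKM, was the more abundant HSP90 transcript in every library and was not called (0.05 ± 0.08, adjusted p = 0.641). Hsp90aa1 shares 47.55% of its 100-base windows with transcripts of 3 other genes, Gm12346 above all, and part of its reads may be counted there. Gm12346 had 178 counts in contact and 149 in transwell libraries.

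The mitochondrial chaperonin genes, which face each other on chromosome 1 and overlap by 112 bases in GENCODE M21, did not pass the test. That overlap counts Hspd1 up to its further start at 55088243, not the start that bounds the 215 bases printed above. Hspd1, which encodes HSP60, stood at 93.20, 107.15 and 98.37 FPKM in contact and 80.04, 84.98 and 89.66 FPKM in transwell libraries. Its groups did not overlap, with a log2 change of 0.11 ± 0.08 (adjusted p = 0.274), which passed with library totals alone (0.23, adjusted p = 0.0396). Hspe1, which encodes HSP10, stood at 66.57, 73.06 and 61.76 against 75.79, 63.69 and 63.09 FPKM, overlapping groups with a log2 change of -0.13 ± 0.10 (adjusted p = 0.353). The ratio of Hspd1 to Hspe1 FPKM was 1.40 to 1.59 in contact and 1.06 to 1.42 in transwell libraries (exact permutation test, two-sided p = 0.2). If the counting did not use strand, reads in the overlap of this pair cannot be told apart. Hspd1 also shares 26.94% of its 100-base windows with transcripts of 2 other genes, mostly Hspd1-ps3 (176 counts in contact and 141 in transwell libraries).

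**Figure D2:**
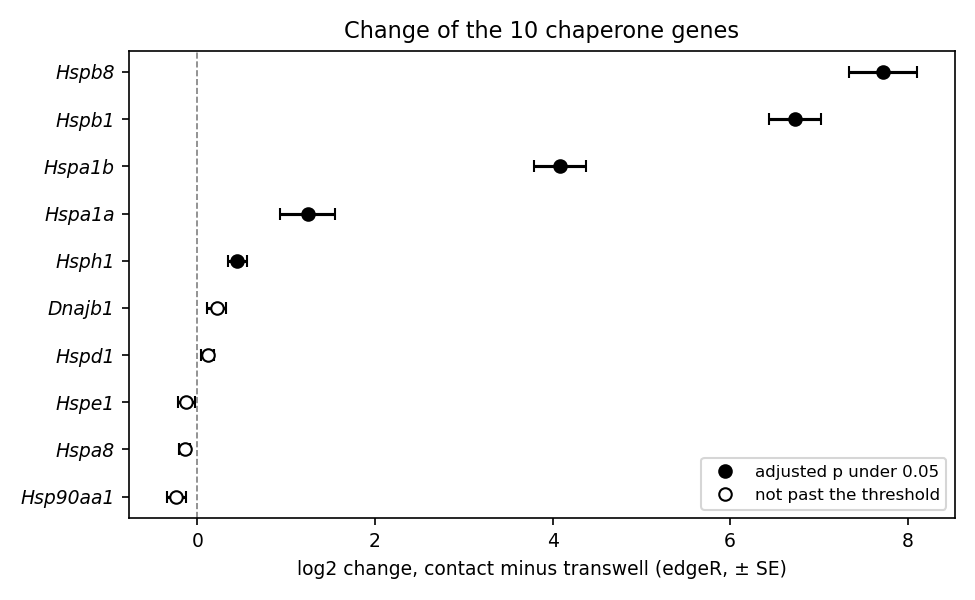
Fitted log2 change of the 10 genes, contact minus transwell, with its standard error, filled where the edgeR adjusted p was under 0.05. Changes run from -0.24 for Hsp90aa1 to 7.73 for Hspb8, and the 5 filled points are all to the right of 0.

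The 3 contact libraries differed among themselves in a way that separates the 10 genes. Contact replicate 2 had the highest value for all 10, where 39.8% of all genes tested were highest in it. The ratio of contact replicate 2 to contact replicate 3 was 1.68 for Hspb1, 1.63 for Hspb8 and 1.66 for Hspa1b. It was 1.30 for Hsph1, 1.24 for Dnajb1, 1.18 for Hspe1, 1.16 for Hspa1a, 1.09 for Hspd1, 1.05 for Hspa8 and 1.02 for Hsp90aa1. The median over 14102 tested genes was 1.02, with a 5th to 95th percentile range of 0.681 to 1.75. Over the 3016 genes called higher in contact, to which Hspb1, Hspb8 and Hspa1b belong, the median was 1.19 and the range 0.821 to 2.05.

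Epithelial transcripts varied with the first 3 of these genes. Their summed FPKM was 1179, 1771 and 1012 in contact replicates 1 to 3, a ratio of 1.75 between replicates 2 and 3, while the summed macrophage markers gave 0.91. The ratio was not particular to epithelial transcripts, since summed fibroblast markers gave 1.65. Those were highest in replicate 1, at 1.26, 1.08 and 0.657 of their contact mean in replicates 1 to 3. Hspb1 amounted to 2.54, 2.43 and 2.52% of the summed epithelial FPKM in the contact libraries and to 3.29, 2.65 and 2.62% in the transwell libraries. Hspb8 amounted to 1.22, 1.13 and 1.21% in contact and to 1.17, 0.784 and 0% in transwell libraries, where it had 7 counts in all. Hspa1b amounted to 0.482, 0.451 and 0.474% in contact and to 5.20, 2.84 and 2.12% in transwell libraries. Most of the transwell epithelial sum, 9.85 FPKM on average, came from Sfn (4.04 ± 0.36) and Itga6 (4.11 ± 0.769). In contact libraries these stood at 79.85 and 13.73 FPKM of a mean sum of 1321. The shares thus refer to sums of unlike make-up and cannot be compared between the groups. Across contact libraries the coefficient of variation was 27.6% for Hspb1 itself and 30.2% for the markers, and the share of Hspb1 was 2.50 ± 0.0615% (SD, n = 3). Among single markers Krt5, a basal keratin gene, had a ratio of 1.82 between replicates 2 and 3, Krt14 one of 1.69 and Epcam, an epithelial adhesion gene, one of 1.91. The part of epithelial transcripts in the rises of Hspb1, Hspb8 and Hspa1b was not tested, since no library of mEC25 cells alone was analysed here. In bulk libraries a change in the number of cells of a type and a change in RNA per cell cannot be told apart.

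**Figure D3:**
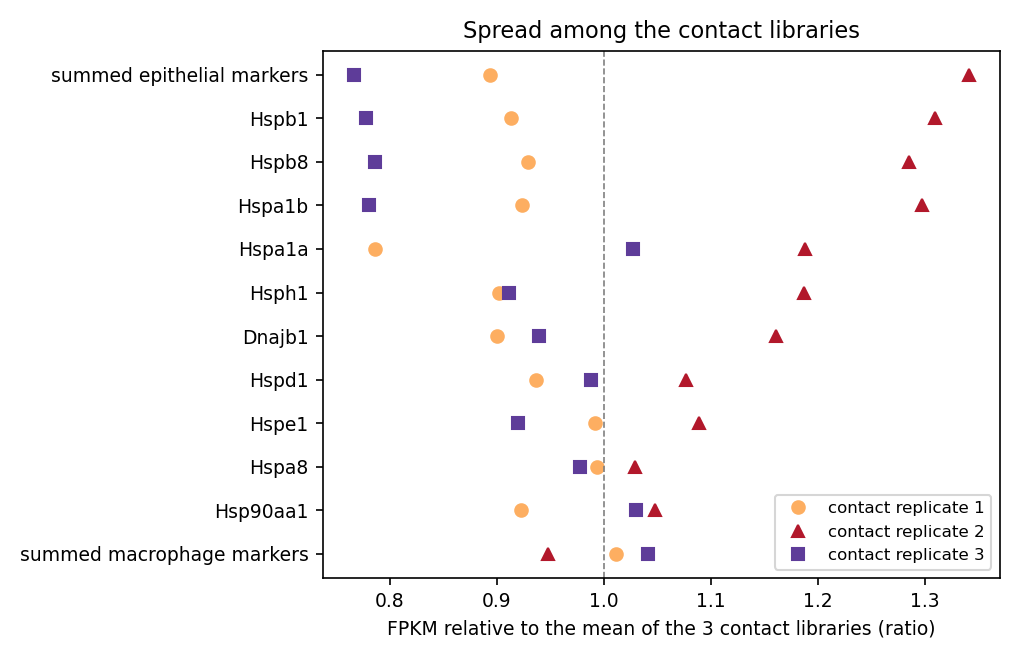
FPKM of each contact library relative to the mean of the 3 contact libraries, for summed epithelial markers, the 10 chaperone genes and summed macrophage markers. Hspb1, Hspb8 and Hspa1b spread from 0.778 to 1.31, and Hspa8 stays between 0.977 and 1.03. Hspa8 and Hspe1 have the same order of libraries as those 3 genes and the epithelial markers, over a narrower range.

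Other measures differed between the groups as well. Summed fibroblast markers were 31.4 to 60.3 FPKM in contact and 9.67 to 18.4 FPKM in transwell libraries, with 6 of 8 tested markers higher, 0 lower (edgeR, also 0 at an unadjusted p under 0.05, by DESeq2 and by limma), and contact replicate 1 the highest. Summed neutrophil markers were 757 to 1123 FPKM in contact and 485 to 1142 FPKM in transwell libraries. Of 7 tested neutrophil markers 2 rose, the granule enzyme genes Mpo (21.4 ± 4.59 against 3.21 ± 2.14 FPKM) and Elane (29.3 ± 7.30 against 3.92 ± 1.88 FPKM), and 0 fell by edgeR, also at an unadjusted p under 0.05, by DESeq2 or by limma. Summed lymphocyte markers were at most 2.12 FPKM in any library. Mitochondrially encoded genes took 1.74 to 1.82% of the counts in contact and 0.923 to 1.25% in transwell libraries, groups that did not overlap. Of the macrophage markers Adgre1, the F4/80 gene, fell (578 ± 57.1 against 1228 ± 83.7 FPKM) and Cd68 fell (588 ± 43.1 against 879 ± 50.7 FPKM). Csf1r, the M-CSF receptor gene, was higher (373 ± 26.3 against 284 ± 9.20 FPKM, adjusted p = 0.0173), a call that ended without contact replicate 1 or 3 or transwell replicate 2 or 3 (log2 change 0.25, 0.24, 0.26 and 0.24). Their part in the chaperone values was not tested.

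The rest of the chaperone network is given list by list, to be read against the 37.5% of all genes that were called. Heat shock factors and their regulators were not called in 5 of 5 tested cases, 0 higher and 0 lower by edgeR, DESeq2 or limma and 1 lower at an unadjusted p under 0.05. Hsf1, the master factor of the heat shock response, stood at 4.53, 5.10 and 4.09 FPKM in contact and 4.29, 3.95 and 3.99 FPKM in transwell libraries, with a log2 change of 0.05 ± 0.10 (adjusted p = 0.746). The ranges overlapped. Bag3, an HSF1 target and partner of HSPB8, stood at 22.75, 23.80 and 22.52 against 20.82, 17.20 and 18.39 FPKM and was not called (0.17 ± 0.09, adjusted p = 0.172). Of 14 other heat-inducible genes, 3 rose (Cryab, Hspa4l and Fkbp4) and 2 fell (Ahsa1 and Ubb), with a median log2 change of 0.03, as over all genes. The fall of Ubb was small (-0.22 ± 0.07, edgeR adjusted p = 0.0266), and limma called only 1 of this list lower, Ahsa1. The lists overlap: Cryab, Hspa4l, Fkbp4 and Ahsa1 are counted again in the lists of their own families.

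Other HSP70 and HSP110 genes rose in 2 of 8 tested cases, with 0 lower by edgeR, also at an unadjusted p under 0.05, and 0 by DESeq2 and limma. Hspa4l, an HSP110 relative, stood at 5.55, 7.55 and 5.81 FPKM in contact and 1.34, 2.36 and 2.16 FPKM in transwell libraries (1.57 ± 0.19, adjusted p = 1.7e-04). Hspa12a, at or under 0.12 FPKM everywhere, passed narrowly (1.43 ± 0.50, adjusted p = 0.0478), and 10 of 15 alternatives ended the call. They included DESeq2 (adjusted p = 0.0979), the analysis with no filter, both limma fits and leaving out contact replicate 1, 2 or 3 (1.44, 1.61 and 1.22) or transwell replicate 2 or 3 (1.37 and 1.04). Hspa9, the mitochondrial HSP70 gene, stood at 88.38, 103.65 and 85.47 against 84.44, 78.57 and 86.44 FPKM (adjusted p = 0.775).

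Of 16 other J-domain genes, 3 rose and 2 fell. Dnaja4 stood at 1.98 ± 0.713 FPKM in contact and 0.0967 ± 0.0723 FPKM in transwell libraries (4.23 ± 0.45, adjusted p = 6.6e-05), with a ratio of 1.85 between contact replicates 2 and 3. Dnajb6, which suppresses aggregation of polyglutamine proteins, behaved otherwise: it stood at 29.44, 30.04 and 28.99 FPKM in contact and 18.11, 17.88 and 19.10 FPKM in transwell libraries. The contact libraries were close to each other, with a ratio of 1.04 between replicates 2 and 3, and the log2 change was 0.57 ± 0.07 (adjusted p = 1.3e-04). Dnajb2 rose less (0.37 ± 0.10, adjusted p = 0.0128), and Dnajc13, an endosomal J-domain gene, fell (-0.58 ± 0.15, adjusted p = 0.0132) with overlapping FPKM. The Dnajb2 call ended in 4 of 16 alternatives, with no filter (0.34) and without contact replicate 1 (0.34) or transwell replicate 2 or 3 (0.33 and 0.37). That of Dnajc13 ended in 5 of 17, both limma fits (-0.41 and -0.44) and without contact replicate 1 or 2 (-0.53 and -0.51) or transwell replicate 3 (-0.56). The other one that fell was Dnajc5 (-0.24 ± 0.07, adjusted p = 0.0213), also with overlapping FPKM. Limma called 0 of the 16 lower, and so did not call Dnajc5.

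Of 16 other HSP90 family and co-chaperone genes, 3 were lower and 1 was higher. Ahsa1, which stimulates the ATPase of HSP90, fell, at 34.47, 32.84 and 32.66 FPKM in transwell and 23.67, 25.02 and 24.35 FPKM in contact libraries (-0.57 ± 0.07, adjusted p = 1.3e-04). Ppp5c, a phosphatase that binds HSP90, fell, at 25.6 ± 0.726 FPKM in transwell and 19.8 ± 0.630 FPKM in contact libraries (-0.49 ± 0.07, adjusted p = 5.2e-04), and Cdc37, the kinase-specific co-chaperone, was lower by -0.29 ± 0.08 (adjusted p = 0.0167). Fkbp4, an immunophilin of steroid receptor complexes, was higher (0.33 ± 0.11, adjusted p = 0.0414). The Fkbp4 call ended in 5 of 17 alternatives, with RLE size factors (0.32) and without contact replicate 1 or 2 or transwell replicate 2 or 3 (log2 change 0.37, 0.21, 0.24 and 0.31). That of Cdc37 ended in 6 of 17, with upper-quartile factors (-0.27), library totals (-0.18) and both limma fits (-0.17 in each), and without contact replicate 2 or 3 (-0.30 and -0.25).

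Of 9 genes for HSP70 nucleotide exchange and quality control, Bag2 rose and St13 fell. Bag2, an inhibitor of the ubiquitin ligase CHIP, stood at 1.84, 2.53 and 1.63 against 0.47, 0.38 and 0.44 FPKM (2.10 ± 0.24, adjusted p = 1.2e-04). Its ratio between contact replicates 2 and 3 was 1.55. The call of St13 (-0.25 ± 0.08, adjusted p = 0.027) ended in 9 of 17 alternatives. Among them were leaving out contact replicate 1 or 2 (-0.23 and -0.24) or transwell replicate 2 or 3 (-0.23 and -0.24). Of 14 subunits of TRiC, the cytosolic chaperonin, and of prefoldin, which hands it actin and tubulin, 2 rose (Pfdn4 and Vbp1) and 2 fell (Cct3 and Pfdn6), with a median of 0.05. The Cct3 call (-0.32 ± 0.07, adjusted p = 0.00548) held in all 17 alternatives. That of Vbp1 (0.31) ended in 6, with no filter (0.28) and without contact replicate 1, 2 or 3 (0.35, 0.30 and 0.27) or transwell replicate 1 or 3 (0.22 and 0.36). That of Pfdn6 (-0.41) ended in 5, with library totals (-0.29), in both limma fits (-0.27 and -0.28) and without contact replicate 2 or 3 (-0.41 and -0.39). That of Pfdn4 (0.45) ended in 2, without contact replicate 2 (0.37) or transwell replicate 3 (0.39). Of 14 mitochondrial chaperone and protease genes, Dnajc15 fell (-0.32 ± 0.09, adjusted p = 0.0173) and 0 rose by edgeR, also at an unadjusted p under 0.05, and 0 by DESeq2 and limma. The Dnajc15 call ended in 5 of 17 alternatives, with library totals (-0.21), in both limma fits (-0.18 and -0.20) and without contact replicate 1 or 2 (-0.30 and -0.31).

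Immediate early genes, which cells switch on within minutes of many stimuli, had 9 of 15 members called higher and 1, Atf3, lower. Their median log2 change was 0.38. Nr4a1, an orphan nuclear receptor gene, stood at 20.23, 20.55 and 16.98 FPKM in contact and 4.22, 3.47 and 3.21 FPKM in transwell libraries (2.29 ± 0.13, adjusted p = 1.6e-06). Egr1, an early zinc finger factor gene, stood at 25.2 ± 2.34 FPKM in contact and 6.5 ± 0.735 FPKM in transwell libraries (1.84 ± 0.11, adjusted p = 2.1e-06), and Ier3 at 544 ± 58.2 and 268 ± 24.2 FPKM. In these 3 genes contact replicates 1 and 2 were close and replicate 3 was lower. Fosl1, an AP-1 subunit gene, stood at 0.78, 1.32 and 0.55 against 0.16, 0.05 and 0.11 FPKM (2.91 ± 0.49, adjusted p = 0.0013), with replicate 2 the highest.

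**Figure D4:**
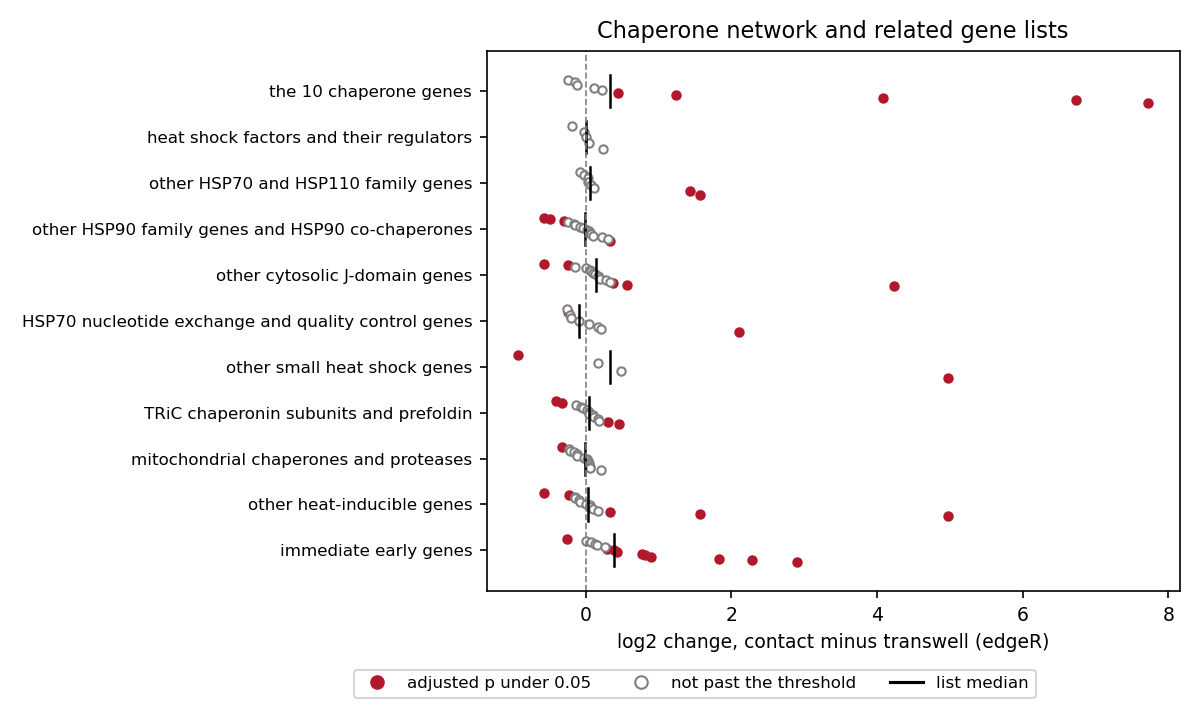
Fitted log2 change, contact minus transwell, of each tested gene in the chaperone lists and the immediate early list, filled where the edgeR adjusted p was under 0.05, with list medians as lines. Most points lie near 0, and Hspb8, Hspb1, Cryab, Dnaja4 and Hspa1b lie above 4.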

How the data were processed

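The authors deposited raw counts per gene for 6 libraries in 1 table, per the file headers, with FPKM beside them. Recomputing FPKM from counts, exonic lengths and library totals gave the deposited value to within 1% for 99.93% of entries with a count above 100. GRCm38 and mm10 are the builds in the submitters' processing notes. An aligner, a counter, an annotation and a strandedness were not given in the sources used here. Only 1472 of 52073 gene IDs shared with GENCODE M21 (GRCm38) carry identical coordinates in both, and positions were therefore taken from GENCODE M21 by ID.

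Groups and replicate numbers come from the sample titles. Genes were filtered with filterByExpr (minimum count 10, 14113 kept), scaled with TMM and tested with edgeR 4.0.16 (quasi-likelihood, two-sided, R 4.3.3), with Benjamini-Hochberg adjustment over all genes tested. The standard error is the absolute log2 change over the square root of F. Alternatives used limma 3.58.1 on log2(FPKM + 1) or log2(FPKM + 0.1), DESeq2 1.42.0, other scalings and filters, a replicate block, and each library left out. On simulated counts for contact against transwell with 14113 genes, edgeR recovered 27 of the 67 genes given a 1.5-fold change. It recovered 54 of the 67 given a 2-fold and 58 of the 66 given a 4-fold change, with 6.71% false calls. On the same counts 15.2% of the calls of DESeq2 and 4.96% of those of limma were false. Only these genes had been changed, in random directions, while 37.5% of genes were called in the data. The rates may therefore not carry over.

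Pairs of replicates differed by a chi-square of 6.38 to 25.2 per degree of freedom, so none agreed within sampling noise. The members, lists and naming rule were chosen with earlier results of these data known. Named genes are the 10 members, up to 4 called genes of largest change per chaperone list, 6 markers, and the 3 genes most like Hspa1a, Hsph1 and Hspb1. Hsf1, Bag3, Hsp90ab1, Hspa9, Ubb, Dnajc5, Atf3, Mpo and Elane were named besides, after their values were seen. Figures were drawn with matplotlib 3.10.9.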

Additional observations from a re-analysis of the deposited data

How the results depend on the processing

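The count of 5 chaperone genes called higher stayed within 1.5 times under 15 of 17 alternatives, at 4 to 5 when 1 library was left out, and at 7 with library totals or limma, which added Dnajb1 and Hspd1. With only genes of a mean of at least 5 FPKM, 8 of the 10 were tested and 3 called higher, beside 1358 of 6514 genes. Under a minimum of 1 for the transwell mean, 6 were tested and 1 called higher, beside 1864 of 10577 genes. The first filter left out Hspa1a and Hspa1b, and the second also left out Hspb1 and Hspb8. None of the 10 was called lower except Hsp90aa1, which made that count 1 with no filter (-0.27, adjusted p = 0.0262), with the replicate block (-0.23, adjusted p = 0.0457) and without transwell replicate 1, against 0 otherwise. Over all genes, leaving out 1 library gave 4042 to 5310 calls, 2465 to 3093 higher and 1577 to 2217 lower. A mean of at least 5 FPKM gave 2674 calls (1358 higher, 1316 lower) and the minimum of 1 for the transwell mean gave 1864 higher. Genes called lower numbered 1450 with library totals, 1422 in limma on log2(FPKM + 1) and 1442 on log2(FPKM + 0.1). FPKM is scaled to library totals, so both limma fits share the scaling of the library-total setting. These were also the settings with 7 chaperone genes called higher, and they are not separate support. The median log2 change of all genes was 0.142 with library totals and 0.0945 and 0.138 in the limma fits, against 0.03 in the main fit. The part of the scaling in these counts was not tested. With the replicate block 5124 genes were called. Same-numbered libraries did not deviate together (correlations of -0.08, -0.45 and 0.06), so the numbers were not taken as pairs. The block also ended the calls of Hspa12a and Hspb9. With epithelial and mitochondrially encoded genes left out, 5 of the 10 were called. Of the other named genes' values, 402 kept their call and direction and 72 kept only their direction. No member changed sign under any alternative. Hspb8 ranged from 3.93 to 8.32, Hspb1 from 4.69 to 6.88 and Hspa1b from 2.41 to 4.48 on the log2 scale, lowest in limma with a pseudocount of 1, which understates the change of low genes. Hspa1a and the transwell levels of Hspb1 and Hspb8 are limited by depth.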

Other observations

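Likeness to 3 of the chaperone genes was measured by Pearson's r of log2 CPM (counts scaled to library size) over the 6 libraries, as a description, since the points are 2 groups of 3 libraries. Hspb1 was matched most closely by Anxa8, an annexin gene (r = 0.9998), Tmem54 (0.9998) and Plb1, a phospholipase gene (0.9998), which are listed at 0 FPKM in the transwell libraries. Anxa8 stood at 5.12, 7.78 and 4.46 FPKM in contact replicates 1 to 3, the order of Hspb1. Plb1 was near the floor there too, at 0.07, 0.09 and 0.07 FPKM. As many as 462 genes had an r above 0.99 with Hspb1, against 9 with Hsph1 and 8 with Hspa1a. Hsph1 was matched most closely by Septin11, a cytoskeletal GTPase gene (0.9972), Rab28 (0.995) and Josd1, a deubiquitinase gene (0.9949). Septin11 stood at 7, 8.81 and 7.18 FPKM in contact and 5.58, 5.74 and 5.74 FPKM in transwell libraries. Hspa1a was matched by Utp4, a ribosome assembly gene (0.9995), Robo2 (0.9941) and Brca1 (0.9925), of which Robo2 was at or under 0.14 FPKM throughout.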
